A study of Mus musculus with 9 samples.

Results

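The 9 genes described here encode 4 chains of the CD3 complex (Cd3g, Cd3d, Cd3e and Cd247) and 5 proteins that act just below the T cell receptor, namely the kinases Lck and Zap70, the adaptors Lat and Lcp2 and the phosphatase Ptpn22. They were chosen by name, as genes of this pathway, and are 9 of the 23234 genes listed for each library. The libraries came from mouse group 2 innate lymphoid cells (ILC2s), lymphocytes that make type 2 cytokines and are defined by the lack of a T cell receptor. The cells came from lymphoid clusters in fat (FALC) of C57BL/6 mice, wild-type in genotype, and were cultured for 48 h. The groups were IL-33 with IFN-γ, IL-33 with IL-27, and IL-33 alone, each cytokine at 10 ng/ml, with 3 libraries per group, so that every group received IL-33. IL-33 is an alarm signal of damaged tissue to which ILC2s respond, IFN-γ is a type 1 immune cytokine and IL-27, which belongs to the IL-12 family, is made by myeloid cells. Neither an age nor the number of mice or separate cultures behind a library is stated. The p-values therefore reflect only the scatter of these libraries, some of which may be technical.

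In T cells the antigen-binding receptor chains have no signalling tail of their own and depend on the CD3 chains, whose cytoplasmic motifs (ITAMs) are phosphorylated by Lck. Zap70 binds the phosphorylated motifs and phosphorylates the adaptors Lat and Lcp2, which gather the enzymes that start calcium and Ras signalling, and Ptpn22 removes phosphates from Lck and Zap70. The receptor of most T cells reaches the surface as a complex with all CD3 chains, in which Cd3e is paired with Cd3d and with Cd3g, while the product of Cd247 also serves other receptors in NK cells.

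Cd3g, Cd3d and Cd3e lie side by side on mouse chromosome 9, and of these neighbours only Cd3g had more than a few FPKM, so the DNA before their starts is shown. In build mm9, Cd3g occupies chr9:44777655-44788514 on the minus strand, Cd3d chr9:44789876-44795135 on the plus strand and Cd3e chr9:44806826-44817673 on the minus strand. Cd3g and Cd3d are read away from each other, with 1361 bases between the annotated genes, and the ends of Cd3d and Cd3e face each other across 11690 bases. The 250 bases before each start, 5′ to 3′ on the gene's own strand, are from RefSeq on build GRCm38.p6 (Cd3g chr9:44980432-44980681, minus strand; Cd3d chr9:44981536-44981785, plus strand; Cd3e chr9:45009612-45009861, minus strand). Capitals mark matches on either strand to 5 motifs. The letters TGTGGT stand for sites of RUNX factors. Those of the GATA factors were searched as GATAAG, and CTTTGA was taken for the related proteins TCF and LEF. E-boxes were searched in the form CAGCTG and separately in the form CAGGTG.
Cd3g: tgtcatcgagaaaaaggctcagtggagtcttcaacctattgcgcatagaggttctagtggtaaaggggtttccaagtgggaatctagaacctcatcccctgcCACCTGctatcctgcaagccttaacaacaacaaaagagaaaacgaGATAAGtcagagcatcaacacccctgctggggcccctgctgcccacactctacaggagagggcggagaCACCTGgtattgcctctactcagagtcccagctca
Cd3d: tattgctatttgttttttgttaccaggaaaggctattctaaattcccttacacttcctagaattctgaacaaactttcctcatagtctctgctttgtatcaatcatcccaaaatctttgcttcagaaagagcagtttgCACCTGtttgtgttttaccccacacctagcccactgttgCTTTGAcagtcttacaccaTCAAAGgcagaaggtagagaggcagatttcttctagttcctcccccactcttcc
Cd3e: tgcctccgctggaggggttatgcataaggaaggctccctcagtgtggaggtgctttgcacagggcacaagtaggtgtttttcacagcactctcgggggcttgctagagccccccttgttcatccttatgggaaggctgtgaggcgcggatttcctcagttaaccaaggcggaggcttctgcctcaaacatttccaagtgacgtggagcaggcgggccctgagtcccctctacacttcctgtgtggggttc

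The Cd3g window held 1 match to GATAAG and 2 to CAGGTG. The Cd3d window held 2 matches to CTTTGA and 1 to CAGGTG, and the Cd3e window held no match to any of the 5. Among 32851 RefSeq windows of the same length, 6.5% held GATAAG, 17.2% CAGGTG and 13.8% CTTTGA on either strand, 14.0% held TGTGGT and 13% CAGCTG. The letters GGAA (ETS factors, 93.4% of the windows), TTCNNNGAA (STAT factors, 7.0%) and TATAAA (the TATA box, 12.4%) were searched too and are not capitalised. GGAA was found in all 3 windows, TTCNNNGAA once in that of Cd3d, and TATAAA in none. No capitalised motif overlapped another in these 3 windows. A match is a description of the letters and not a bound site.

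Expression is given as FPKM, fragments per kilobase of transcript normalised to the mapped fragments of a library, so levels of different genes can be set side by side. Of the 9 genes, 7 had at least 1 FPKM in all 9 libraries, while Cd3d and Cd3e were at or near 0 in most. Averaged over the 9 libraries, Lcp2 was highest at 174 FPKM, and 97.7% of all listed genes had a mean at or below it. Lat (69.4 FPKM), Zap70 (64.1 FPKM) and Cd3g (53.3 FPKM) followed, all at or above 92.0% of the genes, then Cd247 (11.9 FPKM), Ptpn22 (11.0 FPKM) and Lck (7.18 FPKM). Lcp2 lay above Lat without overlap of their ranges over the libraries, and Cd3g lay above Cd247 likewise. Lat, Zap70 and Cd3g overlapped one another, as did Cd247, Ptpn22 and Lck, so the order within these trios is not separated from the spread. The levels come from bulk samples, in which fewer cells that express a gene and less RNA per cell cannot be told apart.

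**Figure D1:**
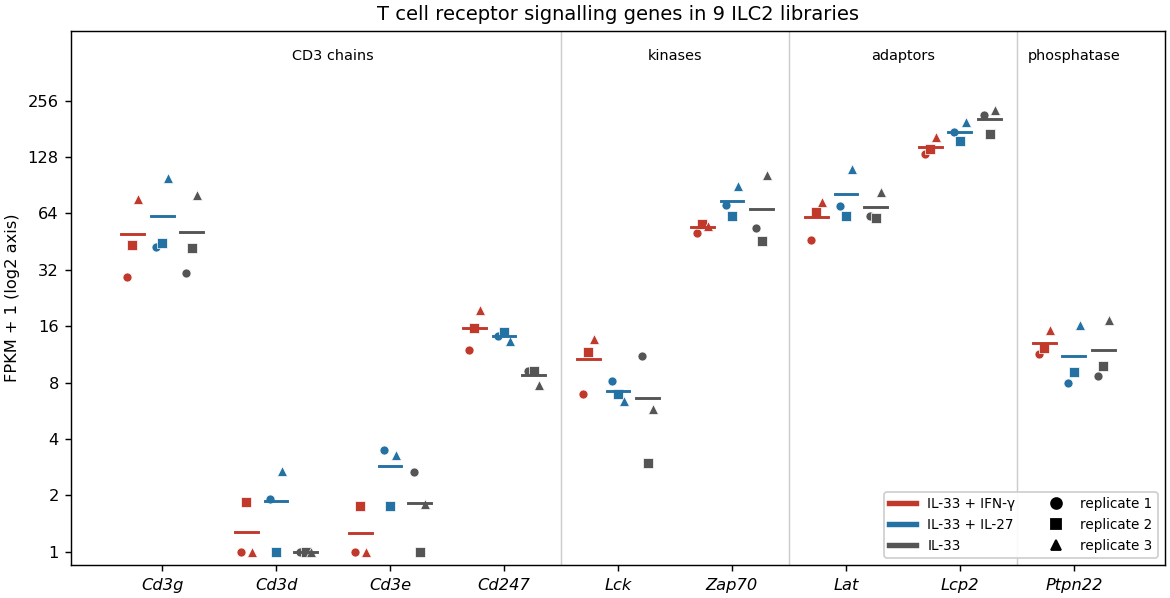
Level of the 9 genes in each library (FPKM + 1 on a log2 axis), with a point per library, its shape giving the replicate number, and a bar at the group mean. The points for Lcp2 all lie above 131 FPKM, Cd3g spans 28.4 to 97.6 FPKM, and Cd3d and Cd3e stay at or below 2.51 FPKM.

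The CD3 chains split into an abundant chain, a moderate chain and 2 that were barely detected. Cd3g had 28.4, 42.5 and 75.8 FPKM in replicates 1 to 3 with IFN-γ, 41.6, 43.2 and 97.6 FPKM with IL-27, and 29.8, 40.9 and 79.5 FPKM with IL-33 alone. It was highest in replicate 3 of each group, and the groups overlapped. Cd247, which encodes the zeta chain, had 10.9, 14.6 and 18.6 FPKM with IFN-γ, 13.2, 13.8 and 12.3 FPKM with IL-27, and 8.23, 8.17 and 6.80 FPKM with IL-33 alone. Every library with IFN-γ or IL-27 was above every library with IL-33 alone. Of the 4 coding transcripts of Cd247 in GENCODE vM1, 3 share 780 to 2136 exon bases with Pou2f1, a gene read from the opposite strand. The library kit does not mark strand, so reads of these genes cannot be told apart in the shared stretch. A processed transcript of the same strand, Gm16565, shares 206 exon bases with Cd247. For Pou2f1, named here with its values known, the levels were 5.88, 5.26 and 4.7 FPKM with IFN-γ, 3.49, 5.72 and 4.5 FPKM with IL-27, and 4.40, 6.45 and 3.5 FPKM with IL-33 alone, and its groups overlapped.

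Cd3d, whose product pairs with that of Cd3e, was listed at 0 in 6 of the 9 libraries. It had 0, 0.836 and 0 FPKM with IFN-γ, 0.916, 0 and 1.70 FPKM with IL-27, and 0 in all 3 libraries with IL-33 alone. Converted with the estimated depth, these values come to about 4 fragments in all 9 libraries together. A listed 0 stands for no counted fragment, which an expected count of up to about 3 fragments can still give. For Cd3d 3 fragments were worth 2.50 to 2.77 FPKM, so a listed 0 does not exclude a level below that. Cd3e, the chain with which the CD3 dimers begin, had 0, 0.764 and 0 FPKM with IFN-γ, 2.51, 0.756 and 2.30 FPKM with IL-27, and 1.65, 0 and 0.8 FPKM with IL-33 alone. That is about 10.9 fragments in all, with 3 fragments worth 2.27 to 2.52 FPKM, and the groups overlapped. By the same conversion Cd3g rested on 23.1 to 82.8 fragments per library. Neither Cd3d nor Cd3e reached the mean of 1 FPKM required for testing, and no fold is given for them.

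Within a library, Cd3g made up 71.4% to 91.3% of the summed FPKM of the 4 chains, with a median of 75.1%. Cd3e reached at most 6.04% of the Cd3g level and Cd3d at most 2.2%. The ratio of Cd3g to Cd247 levels ran from 2.6 to 11.7, and the highest value was that of replicate 3 with IL-33 alone, where Cd3g was high and Cd247 at its lowest. GENCODE vM1 annotates no gene that shares exon bases with Cd3g, Cd3d or Cd3e.

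The chains that bind antigen were not analysed here. Of a list of 17 genes for receptor chains, the tables used here gave a value for Ptcra, the partner of the beta chain in T cell precursors, and it had at most 1.91 FPKM and was not tested. Coreceptors and T cell surface proteins could be examined. Cd4, Cd5 and Trat1 were listed at 0 in all 9 libraries, Cd8a had at most 0.349 FPKM, Cd6 at most 0.750 FPKM and Cd28, the costimulatory receptor, at most 1.36 FPKM. Cd8b1 was an exception at 1.52 to 7.15 FPKM, although its partner Cd8a was near 0. Cd2 was listed at 0 in 6 libraries and reached 4.1 FPKM in replicate 3 with IL-27. Ctla4 had 0 to 29.6 FPKM, highest in replicate 3 with IL-33 alone. Cd2 and Ctla4 were named with their values known. The ILC2 label was checked against 14 genes used as ILC2 markers, all of which were tested. They are not all particular to ILC2s, and Thy1 and Icos are also among the coreceptors and costimulatory receptors below. Among the 14 were Gata3, a transcription factor of the lineage, at 161 to 348 FPKM, Il1rl1, the IL-33 receptor, at 253 to 976 FPKM, and Klrg1 at 159 to 355 FPKM. The lowest of the 14 was Il17rb, the IL-25 receptor, at 0 to 8.90 FPKM. With IFN-γ over IL-33 alone 3 of the 14, Il5, Il13 and Il2ra, fell (limma adjusted p = 0.0167, 0.0282 and 0.00495). Among all tested genes 2.91% were called in that comparison, in either direction. With a block for the replicate number, described below, Il1rl1 was called lower too, and Il17rb and Crlf2 higher. These were 4 lower and 2 higher of the 14, beside 4.66% and 6.51% of all tested genes. With IL-27 over IL-33 alone none was called without the block. With it Id2, Thy1 and Icos were called higher and Il2ra lower, 3 and 1 of the 14, beside 5.15% of all tested genes in either direction. Of 15 T cell markers, 11 were listed, and these summed to 16.3 to 28.2 FPKM with IFN-γ, 16.4 to 20.1 FPKM with IL-27 and 9.70 to 11.1 FPKM with IL-33 alone. Most of that sum was Bcl11b, which ILC2s also use, at 6.10 to 18.6 FPKM, and Cd8b1. The part of T cells in the results was not tested beyond these values.

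The proximal kinases were both on, Zap70 far above Lck. Zap70, the kinase that docks on phosphorylated ITAMs (chr1:36818695-36839663, mm9, plus strand), had 49.1, 55.3 and 54.0 FPKM with IFN-γ, 69.9, 61.3 and 88.7 FPKM with IL-27, and 52.5, 44.8 and 101 FPKM with IL-33 alone. The libraries with IFN-γ all lay below those with IL-27, while IL-33 alone spanned both. Lck, the kinase that phosphorylates the CD3 chains (chr4:129225588-129250885, minus strand), had 5.94, 10.6 and 12.7 FPKM with IFN-γ, 7.17, 5.98 and 5.40 FPKM with IL-27, and 10.1, 1.99 and 4.80 FPKM with IL-33 alone. The groups overlapped, and the library at 1.99 FPKM rested on about 4.23 fragments. Zap70 stood 4.25 to 22.5 times above Lck within a library.

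Lat and Lcp2, the adaptors, were among the most abundant of the 9. Lat, a membrane adaptor phosphorylated by Zap70 (chr7:133507346-133513057, minus strand), had 45.1, 64.0 and 72.5 FPKM with IFN-γ, 69.1, 60.6 and 109 FPKM with IL-27, and 61.2, 59.7 and 82.7 FPKM with IL-33 alone. The groups overlapped, and replicate 3 was the highest library in each. Lcp2, the cytosolic adaptor SLP-76 (chr11:33946920-33992295, plus strand), had 131, 140 and 162 FPKM with IFN-γ, 172, 154 and 195 FPKM with IL-27, and 213, 168 and 227 FPKM with IL-33 alone. Every library with IFN-γ was below every library with IL-33 alone, and those with IL-27 overlapped IL-33 alone. Lcp2 shares 88 exon bases with a transcript of the opposite strand, 4930469K13Rik. Within a library Lcp2 was 1.79 to 3.49 times as high as Lat.

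Ptpn22, the phosphatase that acts on Lck and Zap70 (chr3:103663718-103716170, plus strand), had 10.4, 11.2 and 14.2 FPKM with IFN-γ, 6.95, 8.12 and 15.3 FPKM with IL-27, and 7.65, 8.85 and 16.3 FPKM with IL-33 alone. Replicate 3 was the highest library in each group, and the groups overlapped. Its level was close to that of Cd247 and below that of every other tested gene of the 9 except Lck.

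The first comparison set ILC2s given IFN-γ beside IL-33 against those given IL-33 only. None of the 7 tested genes passed (limma on log2(FPKM + 1), Benjamini-Hochberg adjusted p under 0.05), beside 2.91% of the 11014 tested genes. Cd247 averaged 14.7 ± 3.85 FPKM with IFN-γ and 7.73 ± 0.809 FPKM with IL-33 alone (SD, n = 3 each). That is a log2 fold change of 0.82 ± 0.22 (SE), a 1.77-fold difference with a 95% interval of 1.25 to 2.50, and it missed the threshold (limma adjusted p = 0.0957, unadjusted p = 0.00458). Lcp2 averaged 144 ± 15.7 FPKM with IFN-γ and 203 ± 31.1 FPKM with IL-33 alone, a log2 fold change of -0.48 ± 0.17, which also missed it (limma adjusted p = 0.217, unadjusted p = 0.0205). The remaining 5 had adjusted p-values in limma of at least 0.423.

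Libraries with the same replicate number deviated together, so limma was also run with a block for that number, and this changed both calls. The p-values with the block reflect the scatter left after the replicate number is taken out, not the full spread within a group. With the block, Cd247 was called higher (limma adjusted p = 0.0459) and Lcp2 lower (limma adjusted p = 0.0253), 2 of 7 genes beside 11.2% of all tested genes (6.51% called higher and 4.66% lower). Cd247 was higher with IFN-γ in 3 of 3 pairs, by 0.37, 0.77 and 1.33 on the log2 scale, and Lcp2 lower in 3 of 3, by -0.70, -0.26 and -0.49. Among all tested genes 24.4% were higher in all 3 pairs and 21.1% lower. The groups did not overlap for Cd247 (higher) or Lcp2 (lower), which was also so for 11.9% and 8.65% of all tested genes in those directions. With replicates 1 and 2 alone and the block, an alternative chosen after the data were seen, neither gene was called. The sum of the T cell markers moved in the direction of Cd247, as the sums above show, with Cd4, Cd5 and Trat1 at 0. Of these markers ILC2s also use Bcl11b. It had 13.1 to 18.6 FPKM with IFN-γ, 11.1 to 16.7 FPKM with IL-27 and 6.10 to 8 FPKM with IL-33 alone. With the block Bcl11b was called higher with IFN-γ (limma adjusted p = 0.00892) and IL-27 (0.0191), but not without it (0.0515 and 0.130). Cd8b1 had 1.52 to 7.15, 3.1 to 4.61 and 1.7 to 2.52 FPKM in the same order and was not called. The 10 markers of NK cells and ILC1s summed to 6.5 to 10.8 FPKM with IFN-γ, 1.6 to 9.05 FPKM with IL-27 and 0 to 2.1 FPKM with IL-33 alone, with Klrc1, Klre1, Gzma and Gzmb at 0 in all 9 libraries. Most of the sum with IFN-γ was Tbx21, a transcription factor of NK cells and ILC1s. It had 9.03, 6.42 and 3.7 FPKM with IFN-γ, 8.35, 2.38 and 0.8 FPKM with IL-27, and 0.433, 0 and 0 FPKM with IL-33 alone. Tbx21 rose with IFN-γ (limma adjusted p = 0.0385). With IL-27 it was called higher with the block (limma adjusted p = 0.0412) but not without it (0.285). Prf1 had 1.64, 0.509 and 1.6 FPKM with IFN-γ, 0.558, 0 and 0.5 FPKM with IL-27, and 0.550, 0 and 0 FPKM with IL-33 alone. Of the other markers, Eomes had at most 0.3 FPKM, Klrb1c 0.6 FPKM, Ncr1 0.8 FPKM and Klrd1 1.5 FPKM. The part of such cells in the Cd247 level was not tested.

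The pairs disagreed in sign for Lck with IFN-γ. Its mean was 9.74 ± 3.46 FPKM with IFN-γ and 5.63 ± 4.12 FPKM with IL-33 alone, and the paired differences were -0.68, 1.95 and 1.24 on the log2 scale (limma log2 fold change 0.84 ± 0.45 SE, adjusted p = 0.423). Cd3g averaged 48.9 ± 24.3 FPKM with IFN-γ and 50.1 ± 26.1 FPKM with IL-33 alone, a 0.981-fold difference. Its 95% interval was 0.476 to 2.02 without the block and 0.802 to 1.20 with it, and the paired differences were -0.07, 0.05 and -0.07 on the log2 scale. Zap70 (log2 fold change -0.23 ± 0.28), Lat (-0.17 ± 0.27) and Ptpn22 (0.17 ± 0.34) were higher in some pairs and lower in others.

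**Figure D2:**
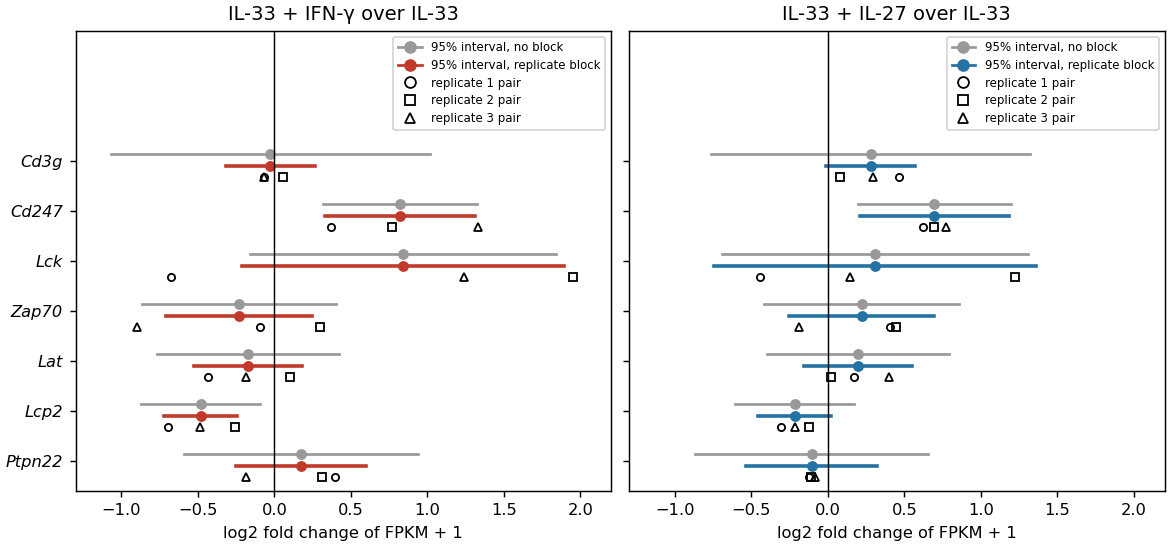
Log2 fold change of FPKM + 1 for the 7 tested genes with IFN-γ (left) and IL-27 (right) over IL-33 alone, each with 95% intervals without (grey) and with (coloured) the replicate block and the 3 paired differences as open symbols. Cd247 lies right of 0 in all 3 pairs of both panels, Lcp2 lies left of 0 in all 3, and the interval of Cd3g narrows most with the block.

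Adding IL-27 to IL-33 gave no call among the 7 genes with or without the block, beside 1.03% of all tested genes without it and 5.15% with it. Cd247 averaged 13.1 ± 0.771 FPKM with IL-27 and 7.73 ± 0.809 FPKM with IL-33 alone (SD, n = 3 each), a 1.62-fold difference with a 95% interval of 1.14 to 2.29 (limma log2 fold change 0.70 ± 0.22 SE, adjusted p = 0.295, unadjusted p = 0.0116). It was higher with IL-27 in 3 of 3 pairs, by 0.62, 0.69 and 0.77 on the log2 scale, and the groups did not overlap, as for 8.29% of all tested genes. In all 3 pairs Cd3g (0.08 to 0.47) and Lat (0.02 to 0.40) were also higher, and Lcp2 (-0.31 to -0.12) and Ptpn22 (-0.12 to -0.09) lower, none past the threshold. Among all tested genes 23.1% were higher in all 3 pairs and 19.5% lower. Both cytokine comparisons use the same IL-33 libraries, so their Cd247 folds are not independent of each other.

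Set directly against IL-27, IFN-γ gave no call among the 7 genes or among any of the 11014, a share of 0%, and with the block 0.182% of the tested genes and none of the 7 were called. At an unadjusted p under 0.05 in limma, 483 of the 11014 genes (4.39%) passed and none of the 7. Zap70 averaged 52.8 ± 3.28 FPKM with IFN-γ and 73.3 ± 14.0 FPKM with IL-27, a 0.731-fold difference with a 95% interval of 0.470 to 1.14 (limma log2 fold change -0.45 ± 0.28 SE, adjusted p = 1). It was the one gene of the 7 whose groups did not overlap here, lower with IFN-γ in 3 of 3 pairs, as were 4.03% of all tested genes without overlap in that direction. Cd3g and Lcp2 were also lower with IFN-γ in all 3 pairs, where 15.7% of all tested genes were. For Cd247 the levels with IFN-γ and IL-27 overlapped, and the interval of their ratio was 0.770 to 1.55.

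The median log2 fold change of the 7 tested genes was -0.03 with IFN-γ over IL-33 alone, 0.22 with IL-27 over IL-33 alone and -0.26 with IFN-γ over IL-27. The medians over all tested genes were 0.03, 0.01 and 0.01 in the same comparisons.

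Several of the 9 genes were highest in the replicate 3 libraries of all 3 groups. Cd3g, Lat and Ptpn22, 3 of the 7, were higher in every replicate 3 library than in any of the other 6, as were 6.67% of the tested genes. Cd3g averaged 84.3 FPKM in the replicate 3 libraries and 37.7 FPKM in the others, a ratio of 2.23, and the ratio was 1.72 for Ptpn22, 1.47 for Lat, 1.47 for Zap70, 1.19 for Lcp2, 1.10 for Lck and 1.09 for Cd247. The 8 fibroblast markers summed to 36.2 to 86.5 FPKM in the replicate 3 libraries and 2.92 to 17.6 FPKM in the others. They did not all move together. Lum had 1 to 3.2 FPKM in replicate 3 and 1.51 to 16.8 FPKM in the others, and Dcn 1.2 to 12.8 FPKM and 0 to 1.30 FPKM. The remaining fibroblast markers were higher in every replicate 3 library than in any other. The 7 mast cell and basophil markers summed to 5.7 to 11.5 FPKM in the replicate 3 libraries and 0 to 2.51 FPKM in the others, with Mcpt4, Cma1, Ms4a2 and Mcpt8 at 0 in all 9. The part of such cells in the levels of the 9 genes was not tested. The 11 listed T cell markers, at 9.70 to 28.2 FPKM in replicate 3, overlapped those of replicate 1 (11.1 to 21.7 FPKM) and replicate 2 (10.8 to 16.4 FPKM).

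Levels of the 9 genes were correlated over the 9 libraries, which share groups and replicate numbers, so the values are descriptions. Cd3g followed Lat (Pearson r = 0.895 on log2(FPKM + 1)), Ptpn22 (0.807) and Zap70 (0.717). It did not follow Cd247 (0.161) or Lck (-0.0149), and Cd247 and Lcp2 ran against each other (-0.592). Of the 8437 genes that averaged 5 FPKM or more, the 3 closest to Cd3g were Rab19 (0.980), Tbc1d9b (0.979) and S1pr4 (0.978). Closest to Cd247 were Hcls1 (0.968), Tox4 (0.953) and Ido1 (0.952), to Zap70 Fam132a (0.971), Epas1 (0.967) and Myo1g (0.962), and to Lat Galnt2 (0.952), Mns1 (0.945) and Atp2a3 (0.943). Lcp2 was most like Stk40 (0.955), Pigs (0.953) and Penk (0.953), Ptpn22 most like Taok3 (0.972), Plekha5 (0.966) and Atp8b2 (0.963), and Lck, with lower values, most like Cenpl (0.917), Trmt2b (0.908) and Zfp787 (0.898).

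The rest of the cascade below the receptor was on in nearly every part. Of 27 other kinases, adaptors and effectors, 26 passed the filter on low values, as did 11014 of all 23234 listed genes. The exception among the 27 was Themis, a T cell development protein, at no more than 0.300 FPKM. Fyn, a Src-family kinase like Lck, had 22.2 to 42.0 FPKM, always more than Lck. Txk, a Tec-family kinase, had 1.37 to 7.5 FPKM. Of the effectors, the exchange factor Vav1 (32.8 to 42.4 FPKM) and the phospholipase Plcg1 (14.96 to 23.8 FPKM) had narrow ranges. Grap2, the adaptor that links Lat to Lcp2, had 6.60 to 26.2 FPKM, Prkcq, a protein kinase C of T cells, 7.20 to 62.3 FPKM, and Rasgrp1, the exchange factor that activates Ras, 6.22 to 47.7 FPKM.

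**Figure D3:**
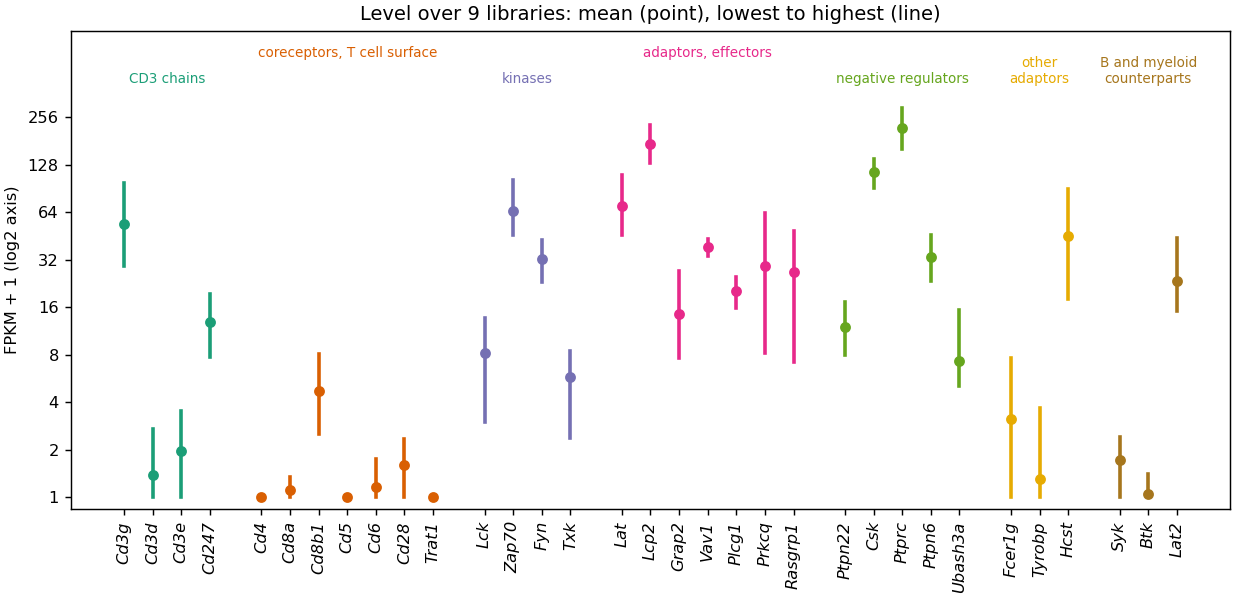
Level of the genes of the pathway over the 9 libraries (FPKM + 1 on a log2 axis), with a point at the mean and a line from the lowest to the highest library, grouped by role. Cd4, Cd5 and Trat1 sit at 0 FPKM, whereas Lcp2, Csk and Ptprc lie above 90 FPKM in every library. Ptprc, which sets the activity of Lck, is drawn among the negative regulators.

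No gene of that list passed without the block in either comparison with IL-33 alone, and the median log2 fold change was 0.21 with IFN-γ and 0.31 with IL-27, beside medians of 0.03 and 0.01 over all tested genes. Rasgrp1 had 30.5, 25.7 and 44.7 FPKM with IFN-γ, 22.3, 30.2 and 47.7 FPKM with IL-27, and 6.22, 6.65 and 18.6 FPKM with IL-33 alone. The libraries of both cytokine groups all lay above those of IL-33 alone. The difference was 3.28-fold with IFN-γ (limma adjusted p = 0.0623, and 0.00214 with the block) and 3.20-fold with IL-27 (limma adjusted p = 0.130, and 0.00399 with the block). Without replicate 3 of IL-33 alone it was called without the block too (limma adjusted p = 0.0139 with IFN-γ and 0.0260 with IL-27).

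With the block, 5 of the 26 genes were called higher with IFN-γ and 5 with IL-27, and none lower, beside 6.51% and 3.37% of all tested genes called higher. With IFN-γ these included Rasgrp1, Prkcq, Fyn and Fyb, and with IL-27 Rasgrp1, Prkcq, Grap2 and Fyb. Fyb, an adaptor that binds Lcp2, was named with its values known. Fyn had 42.0, 38.3 and 38.0 FPKM with IFN-γ, 32.3, 23.0 and 36.6 FPKM with IL-27, and 25.0, 22.2 and 23.3 FPKM with IL-33 alone. Its libraries with IFN-γ all lay above those with IL-33 alone, while those with IL-27 overlapped them.

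**Figure D4:**
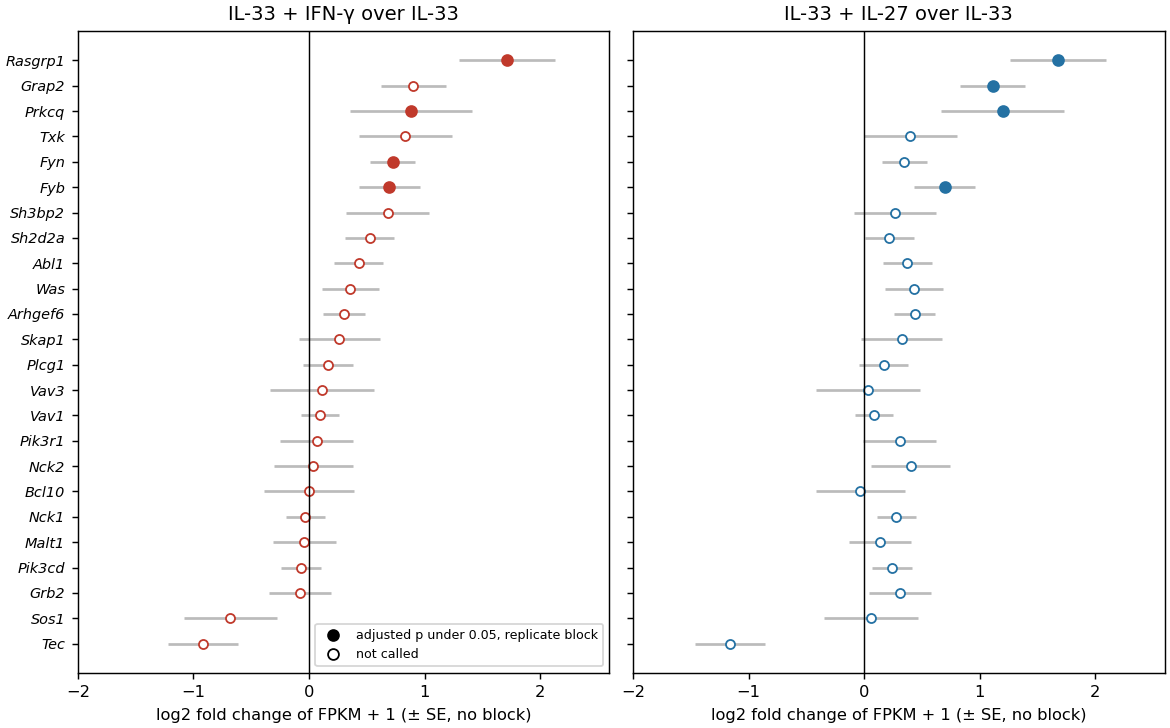
Log2 fold change of FPKM + 1 (± SE without the block) of 24 of the 26 tested kinases, adaptors and effectors other than the 9 genes, with IFN-γ (left) and IL-27 (right) over IL-33 alone. Filled points mark the 4 genes per panel called with the replicate block, all of them higher, with Rasgrp1 furthest to the right at 1.72 and 1.68.

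Proteins that limit or adjust the cascade were also on, and 21 of 21 listed were tested with none called without the block. Ptprc, the phosphatase CD45 that sets the activity of Lck, had 161 to 293 FPKM. Csk, the kinase that inhibits Lck, had 90.8 to 138 FPKM, Ptpn6 (SHP-1) 22.4 to 45.2 FPKM and Ubash3a 4.06 to 14.4 FPKM. With the block 1 of the 21 was called higher in each comparison. For all tested genes the shares called higher were 6.51% with IFN-γ and 3.37% with IL-27. The 1 gene was the adaptor Lime1 with IFN-γ (limma adjusted p = 0.0461) and the adaptor Sla with IL-27 (limma adjusted p = 0.0160). Both were chosen after their values were seen.

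Among 12 coreceptors and costimulatory receptors 5 were tested. None was called without the block. With it Cd27, a TNF receptor family member, was called higher with IFN-γ (limma adjusted p = 0.00763), and Cd27 (0.0143), Icos (0.0399) and Thy1 (0.0320) with IL-27. These were 1 and 3 of the 5, beside 6.51% and 3.37% of all tested genes called higher. Cd27 had 10.5, 9.79 and 25.6 FPKM with IFN-γ, 14.6, 6.16 and 24.6 FPKM with IL-27, and 3.71, 0.878 and 9.5 FPKM with IL-33 alone, and the libraries with IFN-γ all lay above those with IL-33 alone. Of 18 genes of calcium entry, calcineurin and NFAT, 16 were tested, and 1 of them, Nfatc2, was called. It was called higher, with the block and with IFN-γ (limma adjusted p = 0.0309), beside 6.51% of all tested genes called higher. Cd27, Icos, Thy1 and Nfatc2 were named after their values were seen. Nfatc1 had 5.29 to 18.5 FPKM and Nr4a1, an early gene of receptor stimulation in T cells, 8.90 to 54.2 FPKM, neither called over IL-33 alone with or without the block.

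A list of 18 genes held the signalling adaptors of other receptors and the relatives of the 9 genes in B, mast and myeloid cells, and 9 of them were tested. Hcst (DAP10, which carries no ITAM) had 17.1 to 89.0 FPKM, and Fcer1g, the gamma chain of Fc receptors with an ITAM, at most 6.60 FPKM with 0 in 3 libraries. Tyrobp (DAP12) was listed at 0 in 8 libraries. The relative of Zap70 in B and myeloid cells, Syk, had at most 1.40 FPKM and Btk at most 0.399 FPKM. Lat2, the relative of Lat, had 16.7, 14.1 and 21.9 FPKM with IFN-γ, 16.3, 17.6 and 26.6 FPKM with IL-27, and 22.6, 25.0 and 43.0 FPKM with IL-33 alone. Its libraries with IFN-γ all lay below those with IL-33 alone, and it was called lower with IFN-γ with the block (limma adjusted p = 0.0212) but not without it (limma adjusted p = 0.283). No other gene of that list was called in the comparisons with IL-33 alone. That is 1 of the 9 with IFN-γ, beside 4.66% of all tested genes called lower with the block.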

How the data were processed

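RNA of cultured ILC2s was sequenced with the TruSeq RNA v2 kit in 9 libraries, 3 in each of 3 groups. The authors deposited 1 FPKM value per gene and library. Per the submitters' processing notes, Bowtie2 2.1.0, TopHat2 2.0.8 and Cufflinks 2.1.1 were used with mouse build mm9, and neither parameters nor the annotation are given in the sources used here. The unit was inferred from the Cufflinks column header and the values. Commas that group digits in the replicate 3 tables were removed. FPKM summed to 628625 to 672534 per library, and 10504 to 11004 genes had at least 1 FPKM. Depth, estimated from the steps between low values, was about 964000 to 1070000 fragments. Between 65.6% and 76.5% of the low values lay within 0.15 of a whole fragment, so fragment numbers are approximate, and floors of 3 fragments cover counting error only.

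Tests on log2(FPKM + 1) covered the 11014 genes that averaged 1 FPKM or more. The 3 groups were fitted together with limma 3.58.1 (eBayes with trend, two-sided) in R 4.3.3, with Benjamini-Hochberg adjustment over all tested genes within a comparison and a threshold of 0.05. The fold changes are on the log2(FPKM + 1) scale and understate those of low genes. The fit and the depth estimate were tested on simulated data. Deviations of libraries from their group means correlated at 0.128 to 0.367 for the 9 pairs with the same replicate number and at -0.298 to -0.0251 for the 18 others, so same-numbered libraries were treated as pairs. For the 9 genes and the named pathway genes, a call that changed with the block is stated. Blocked results of other named genes are not all given. The pairing comes from these correlations and not from the labels. Alternatives were another pseudocount, filter, trend or scaling, the block and leaving out libraries.

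Symbols were matched to GENCODE vM1 for coordinates (mm9) and to RefSeq for promoters (9 of 9 genes, 13 windows). Tables and figures were made in Python 3.11.15 (pandas 2.3.3, numpy 2.4.6, matplotlib 3.10.9). The 9 genes and the gene lists were chosen with earlier results of these data known. Apart from marker genes, genes outside the 9 were named by a fixed rule. It took a set of pathway genes regardless of value, pathway list genes called without the block (there were none), and the 3 genes closest to each of the 7 tested genes. The marker lists were fixed as lists, but the marker genes named from them, such as Il5, Il13, Il2ra, Tbx21, Lum and Dcn, were picked with their values known. Some genes of the lists are counted but not reported by name here. Others are said to have been chosen after their values were seen.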

Additional observations from a re-analysis of the deposited data

How the results depend on the processing

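The number of genes called depended on the settings. Without the filter on low values 162 genes were called with IFN-γ and 45 with IL-27 over IL-33 alone, and 4 between IFN-γ and IL-27. With the replicate block these counts were 1230, 567 and 20. Between IFN-γ and IL-27, 2 genes were called without the intensity trend, and 2 with the block in replicates 1 and 2 only. Leaving out libraries gave 16 to 299 genes with IFN-γ, 7 to 122 with IL-27 and 0 to 2 between them. Of the 7 tested genes, 2 were called with IFN-γ under the replicate block (Cd247 and Lcp2), and these were the only calls of the 7 in 399 values over 19 settings. The sign changed in 21 of the 399 values, none of them called, and the lowest limma adjusted p among these was 0.727. With the block in replicates 1 and 2 only, Cd247 was at -0.091 between IFN-γ and IL-27, and Zap70 at 0.10 with IFN-γ over IL-33 alone. Over the settings that left out libraries the log2 fold change with IFN-γ over IL-33 alone ran from 0.57 to 1.05 for Cd247, 0.28 to 1.6 for Lck, -0.61 to -0.37 for Lcp2, -0.39 to 0.36 for Cd3g, -0.31 to 0.021 for Lat, -0.025 to 0.47 for Ptpn22 and -0.50 to 0.12 for Zap70. With IL-27 over IL-33 alone it ran from -0.12 to 0.67 for Cd3g, -0.051 to 0.37 for Lat, -0.17 to 0.78 for Lck, -0.42 to 0.20 for Ptpn22 and -0.011 to 0.57 for Zap70. Between IFN-γ and IL-27 it ran from -0.091 to 0.32 for Cd247 and -0.67 to 0.089 for Cd3g. The cause was not tested. Without replicate 3 of IL-33 alone, Rasgrp1 was called without the block, with limma adjusted p = 0.0139 with IFN-γ and 0.0260 with IL-27, as it was without all replicate 3 libraries with IFN-γ (0.0334). With a filter at a mean of 5 FPKM, Bcl11b (limma adjusted p = 0.0402) was called higher with IFN-γ. At the estimated depth, Cd3d and Cd3e lie at the limit of detection, and a few fragments decide their level in a library.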

Other observations

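The ITAM chain of the B cell receptor Cd79b, named here with its values known, reached 20.3, 51.2 and 83.9 FPKM with IFN-γ, 33.2, 47.8 and 55.2 FPKM with IL-27, and 34.8, 40.3 and 33.3 FPKM with IL-33 alone. Its groups overlapped. Its level was close to that of Cd3g (28.4 to 97.6 FPKM), while its partner Cd79a, at most 0.9 FPKM, was near 0. The B cell genes Ms4a1, at most 0.5 FPKM, and Pax5, listed at 0 in all 9 libraries, were also near 0. Cd8b1, at 1.52 to 7.15 FPKM beside Cd8a at up to 0.349 FPKM, was a further case in which 1 chain of a receptor pair was listed with its partner near 0.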
